A study of Mus musculus with 5 samples.

Results

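A set of 10 listed targets of the YAP/TAZ-TEAD transcription complex that belong to no common gene family was followed from wild-type mouse uvea to eye tumors: Gadd45b, Ccdc80, Rbms3, Myof, Asap1, Nuak2, F3, Dock5, Nt5e and Crim1. They were taken by symbol from a given list of targets outside the CCN, angiomotin and Ankrd families, whatever their level. All 10 of 10 were found, each as a locus with a single gene name, among 24768 loci in the deposited table, of which 23141 carried a gene name. The uvea is the pigmented layer of the eye formed by iris, ciliary body and choroid. The control group was uveal tissue taken from wild-type adults (2 libraries). The other group was eye tumors (3 libraries) of adults that carried floxed alleles of both Lats1 and Lats2 (Lats1/2 fl/fl) and received Cre recombinase through an adeno-associated virus (AAV5-Cre). The sources used here give neither the promoter that drives Cre nor the cells it reached. The wild-type group carries neither floxed alleles nor virus, so effects of the deletion, the virus, the floxed background and the change from tissue to tumor cannot be told apart. The labels do not state whether each library was made from its own animal. The p-values therefore reflect the spread among these 5 samples alone, and some of that spread may be technical.

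YAP and TAZ are transcriptional coactivators that bind DNA through the TEAD factors. The Hippo kinases LATS1 and LATS2 phosphorylate both coactivators and keep them in the cytoplasm, so loss of the kinases lets them enter the nucleus. Genes reported as targets in one cell type need not respond in another, since TEAD acts at enhancers that differ between cell types, often beside AP-1 factors, and the complex can also repress genes.

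The libraries held 12687703 to 14368272 estimated fragments. Lats1 was at 7.55 and 8.86 FPKM (fragments scaled for transcript length and library depth) in wild type and at 3.43, 3.90 and 2.94 in tumor libraries 1, 2 and 3, with no overlap, and fell by 1.21 on the log2 scale (SE 0.18, edgeR adjusted p = 0.0115). Lats2 had 20.05 and 20.2 FPKM in the wild-type libraries, against 12.6, 17.0 and 14.3 in tumors, lower in each, but its difference of -0.62 (SE 0.19) did not pass (edgeR adjusted p = 0.0577). These are values of whole loci, so reads outside the floxed exons are counted as well. In bulk tissue, fewer cells of a type and less RNA per cell cannot be told apart, here and in every result below.

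The targets split. Gadd45b, Ccdc80, Rbms3 and Myof rose in tumors, Crim1, Nt5e and Dock5 fell, and Asap1, Nuak2 and F3 did not pass the test. All 10 had enough counts to be tested. A locus was called at an adjusted p under 0.05 by edgeR's quasi-likelihood test over all 15241 tested loci, and each log2 fold change is the edgeR estimate for tumor relative to wild type. Of all tested loci, 34.1% were called, 18.7% as higher and 15.4% as lower in tumors, beside 7 of 10 targets, 4 higher and 3 lower. DESeq2 called the same 4 targets higher and the same 3 lower, beside 43.3% of its 16107 tested loci, 22.9% higher and 20.4% lower. The groups did not overlap for 8 targets, all but Asap1 and Nuak2, and for 70% of all tested loci. The median log2 fold change was 0.16 over the 10 targets and 0.05 over all tested loci, and the median size regardless of sign was 1.79 and 0.76. Leaving out either wild-type library ended every edgeR call in the table, with 4085 and 3996 loci at an unadjusted p under 0.05. Without wild-type library 1, DESeq2 called 3 rises and 3 falls among the targets, and without wild-type library 2 it called 3 rises and 2 falls.

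**Figure D1:**
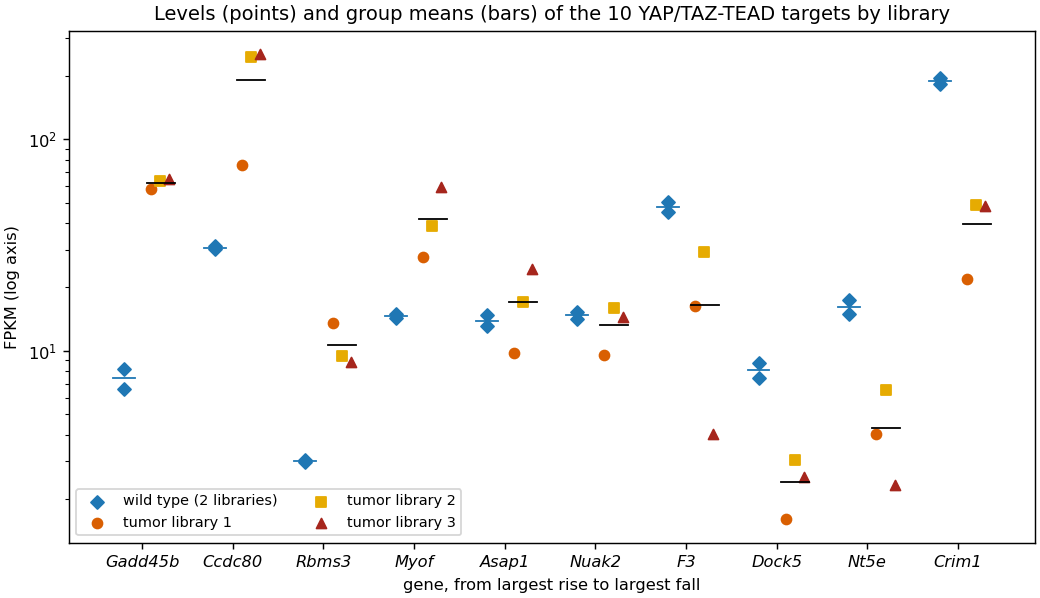
Level of each target in every library, in FPKM on a log axis; points are libraries and bars are group means. Gadd45b, Ccdc80, Rbms3 and Myof lie higher in all 3 tumors than in both wild-type libraries, Crim1, Nt5e, Dock5 and F3 lie lower, and Asap1 and Nuak2 overlap.

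**Figure D2:**
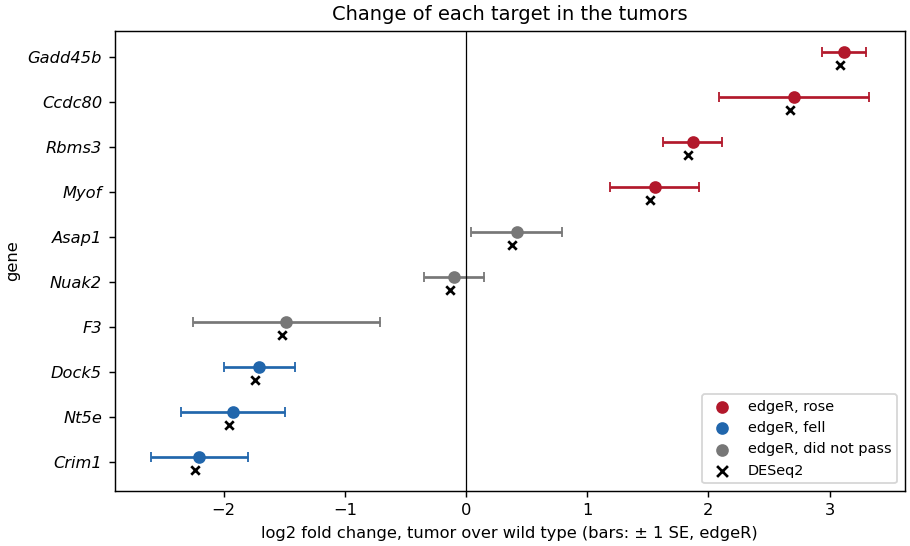
Log2 fold change of tumor over wild type for each target from edgeR. Bars give the SE on either side, crosses give the DESeq2 estimate, and the colour gives the edgeR call. The 95% confidence intervals of Asap1, Nuak2 and F3, which are not drawn, include 0.

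Gadd45b encodes a small stress-inducible protein that binds an upstream kinase of the p38 and JNK pathways (chr10:80930091-80932204, plus strand, mm10, 4 exons). Its levels were 8.22 and 6.59 FPKM in wild type and 58.1, 63.7 and 65.0 FPKM in tumor libraries 1, 2 and 3. The 3 tumors were close together and far above both wild-type libraries. The mean went from 7.40 ± 1.15 FPKM (SD, n = 2) to 62.3 ± 3.63 (SD, n = 3), an 8.41-fold difference, and edgeR put the change at 3.12 on the log2 scale (SE 0.18, edgeR adjusted p = 0.00304). It was the largest change among the 10 and the most even: the SD of log2 CPM over the tumors was 0.08, at percentile 5.84 of all tested loci.

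Ccdc80 encodes a secreted protein of the extracellular matrix (chr16:45093505-45131134, plus strand, 9 exons). Its levels were 30.2 and 31.2 FPKM in wild type and 75.8, 246 and 252 FPKM in tumor libraries 1, 2 and 3. All tumors were above wild type, and tumor library 1 was 3.32-fold below tumor library 3. The mean rose from 30.7 ± 0.696 (SD, n = 2) to 191 ± 99.9 FPKM (SD, n = 3), and edgeR put the change at 2.71 on the log2 scale (SE 0.62, edgeR adjusted p = 0.0302). Without tumor library 3 the log2 fold change was 2.45 and the edgeR adjusted p was 0.0515.

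Rbms3 encodes an RNA-binding protein of the single-strand binding family named for the Myc gene (chr9:116572746-117629913, minus strand, 14 exons). It was the lowest of the 10 in wild type, with 2.98 and 3.05 FPKM, and reached 13.6, 9.43 and 8.87 FPKM in tumor libraries 1, 2 and 3. It was the single target whose highest tumor value lay in tumor library 1. The rise was 3.53-fold between mean levels, and edgeR put the change at 1.87 on the log2 scale (SE 0.24, edgeR adjusted p = 0.00945). Reads of 4 genes annotated on the opposite strand within Rbms3, 3 of them processed pseudogenes, may be counted with it, since no source used here gives the strand setting.

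Myof encodes myoferlin, a membrane protein of the ferlin family that takes part in membrane fusion and repair (chr19:37899036-38043577, minus strand, 53 exons). Levels of 14.3 and 14.9 FPKM in wild type stood beside 27.9, 38.7 and 59.5 FPKM in tumor libraries 1, 2 and 3. The groups were apart, and the tumors spread over a 2.13-fold range. On the log2 scale the fold change was 1.56 (SE 0.37, edgeR adjusted p = 0.0331). DESeq2 no longer called the rise without wild-type library 1 (adjusted p = 0.0655) or without wild-type library 2 (adjusted p = 0.0507).

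Crim1 encodes a transmembrane protein with cysteine-rich repeats that binds bone morphogenetic proteins (BMPs) and has a part in eye development (chr17:78200248-78376592, plus strand, 17 exons). It was the most abundant of the 10 in wild type, with 183 and 194 FPKM, at percentile 96.8 of all tested loci by mean level there. Tumor libraries 1, 2 and 3 held 21.7, 48.7 and 48.3 FPKM, all far below wild type, with tumor library 1 lowest. The mean was 4.76-fold higher in wild type, and edgeR put the change at -2.203 on the log2 scale (SE 0.40, edgeR adjusted p = 0.0183). The protein-coding gene Fez2 overlaps Crim1 on the opposite strand and has a locus of its own.

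Nt5e encodes CD73, the cell-surface enzyme that makes adenosine from AMP (chr9:88327482-88372089, plus strand, 9 exons). Its levels were 14.9 and 17.4 FPKM in wild type and 4.05, 6.55 and 2.32 FPKM in tumor libraries 1, 2 and 3. The tumors lay below wild type and spread over a 2.82-fold range. On the log2 scale the fold change was -1.92 (SE 0.43, edgeR adjusted p = 0.0291). Without tumor library 1 it was -1.85 with an edgeR adjusted p of 0.0759, and without wild-type library 2 the DESeq2 adjusted p was 0.0788.

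Dock5 encodes a guanine nucleotide exchange factor that activates the GTPase Rac (chr14:67751928-67933572, minus strand, 52 exons). Wild-type libraries held 7.42 and 8.72 FPKM, and tumor libraries 1, 2 and 3 held 1.59, 3.05 and 2.53. Each tumor was below both wild-type libraries. The mean was 3.38-fold higher in wild type, and edgeR put the change at -1.71 on the log2 scale (SE 0.30, edgeR adjusted p = 0.0167).

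F3 encodes tissue factor, the membrane receptor of coagulation factor VII that starts blood clotting (chr3:121723166-121735052, plus strand, 6 exons). Wild-type levels were 45.2 and 50.3 FPKM, and tumor libraries 1, 2 and 3 held 16.2, 29.3 and 4.03 FPKM. All tumors were below wild type, but they spread over a 7.26-fold range, and the SD of their log2 CPM stood at percentile 90.6 of all tested loci. The log2 fold change of -1.48 (SE 0.77, 95% interval -3.47 to 0.50) did not pass, with an adjusted p of 0.19 by edgeR and of 0.116 by DESeq2. DESeq2 called it lower without tumor library 2 (log2 fold change -2.23, adjusted p = 0.00501) and without tumor library 3 (-1.05, adjusted p = 0.0229).

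Asap1 encodes a GTPase-activating protein for ARF GTPases that acts at the actin cytoskeleton (chr15:64070572-64382968, minus strand, 31 exons). Its levels were 13.05 and 14.7 FPKM in wild type and 9.79, 17.0 and 24.3 FPKM in tumor libraries 1, 2 and 3. Tumor library 1 was below wild type and tumor libraries 2 and 3 above it. On the log2 scale the fold change was 0.42 (SE 0.37, edgeR adjusted p = 0.42), with a 95% interval of -0.55 to 1.38. Antisense genes annotated within Asap1 (2 genes) may add reads to it.

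Nuak2 encodes a kinase of the AMPK-related family that is activated by LKB1 and controls actomyosin through the myosin phosphatase (chr1:132316125-132333488, plus strand, 7 exons). Wild type held 14.1 and 15.3 FPKM, and tumor libraries 1, 2 and 3 held 9.58, 15.9 and 14.4. The values overlapped, with tumor library 1 the lowest of the 5. The log2 fold change was -0.10 (SE 0.25, 95% interval -0.73 to 0.54, edgeR adjusted p = 0.782), and without tumor library 1 it was 0.09, so its sign rests on that library.

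Targets that rose and targets that fell had overlapping levels in wild type, compared on the FPKM scale, which accounts for transcript length. The 4 that rose had mean wild-type levels of 3.01 to 30.7 FPKM, and the 3 that fell had 8.07 to 188 FPKM. In tumors the order of the means was Ccdc80, Gadd45b, Myof, Crim1, Asap1, F3, Nuak2, Rbms3, Nt5e and Dock5, from 191 down to 2.39 FPKM. Neighbours from Myof to Crim1 (42.0 ± 16.1 and 39.6 ± 15.5 FPKM, SD, n = 3) and from Asap1 to Rbms3 (17.0 ± 7.26 and 10.6 ± 2.57 FPKM, SD, n = 3) lay within their spread. Crim1 thus remained more abundant in tumors than Rbms3, which rose, and the lowest tumor value of Crim1 (21.7 FPKM) was above the highest of Rbms3 (13.6 FPKM).

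The 3 tumors differed from each other more than the wild-type libraries did. The median SD of log2 CPM over tumors was 0.58 for the 10 targets and 0.34 for all tested loci, and over the wild-type libraries it was 0.08 and 0.09. Tumor library 1 held the lowest tumor value of 7 targets (Gadd45b, Ccdc80, Myof, Asap1, Nuak2, Crim1 and Dock5), where 34.0% of loci had their lowest tumor value in it. Tumor library 2 held the highest value of 5 targets, among them all 3 that fell, and tumor library 3 the highest of 4, beside 31.7% and 40.8% of all loci. As a description over 5 libraries, the pair with the closest pattern (Euclidean distance between log2 CPM centred on each gene) was Crim1 and Dock5 (distance 0.7), followed by Asap1 and Nuak2 (0.715) and by Nt5e and Dock5 (1.07). Crim1 and Gadd45b were farthest apart (5.98).

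Among 14 other YAP/TAZ-TEAD targets, 6 rose and 8 did not pass, with a median log2 fold change of 1.38 beside 0.05 over all tested loci. Over all tested loci, 18.7% were called higher and 15.4% lower, beside which the list counts below also stand. The 14, like the lists below, were chosen with earlier results of these data known. None of the 14 fell by edgeR over all 5 libraries (3 did without tumor library 2). At an unadjusted p under 0.05, 2 were lower, and DESeq2 called 2 lower. Ankrd1, an ankyrin repeat protein of muscle and injured tissue, had 0.382 and 0.154 FPKM in the wild-type libraries, against 96.4, 69.4 and 62.0 FPKM in tumors (log2 fold change 8.15, SE 0.50, edgeR adjusted p = 0.00333). Axl (2.198), the matricellular Cyr61 (2.19) and Ctgf (1.53), the angiomotin Amotl2 (1.71) and Igfbp3 (1.45) rose as well on the log2 scale. Fjx1 (1.59), Gadd45a (1.32), Ptpn14 (0.89), Arhgef17 (-0.29), Amotl1 (-0.62), Lats2 (-0.62), Tgfb2 (-0.90) and Foxf2 (-1.81) did not pass. Gadd45a, a paralog of Gadd45b, had 8.92 and 8.83 FPKM in the wild-type libraries, against 22.4, 31.6 and 10.2 FPKM in tumors, above wild type in each (edgeR adjusted p = 0.107).

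The factors that act on these targets moved in different directions. Of 17 tested Hippo pathway genes, 6 rose, 2 fell and 9 did not pass, with a median log2 fold change of 0.53. The rises numbered 5 with RLE factors in edgeR and 8 by DESeq2. Vgll3 had the largest change among the 17 (4.13, SE 0.33, edgeR adjusted p = 0.00466). It went from 2.85 and 3.78 FPKM in wild type to 21.4, 57.5 and 55.1 FPKM in tumors. Yap1 had 52.4 and 55.6 FPKM in the wild-type libraries, against 24.4, 25.9 and 13.6 FPKM in tumors, and fell by 1.29 on the log2 scale (SE 0.31, edgeR adjusted p = 0.0351). Wwtr1, which encodes TAZ, had 13.5 and 13.8 FPKM in the wild-type libraries, against 23.4, 28.2 and 18.1 FPKM in tumors, and rose by 0.82 (SE 0.23, edgeR adjusted p = 0.0491). Among the DNA-binding partners, Tead4 rose by 1.75 (edgeR adjusted p = 0.00902), from 0.880 and 0.963 FPKM to 2.82, 2.99 and 2.99 FPKM. Tead1 (0.15), Tead2 (0.31) and Tead3 (0.95, edgeR adjusted p = 0.0534) did not pass.

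Families and partners of the targets that rose were described next, from lists drawn up by known function and with earlier results of these data known. Of 14 genes listed beside Gadd45b, 3 rose and 1 fell (median log2 fold change 0.24). Gadd45g, its other paralog, went from 22.4 and 21.0 FPKM to 65.2, 72.8 and 97.7 FPKM (1.90, edgeR adjusted p = 0.0081). Cdkn1a, which encodes the cell cycle inhibitor p21, rose by 3.04 (edgeR adjusted p = 0.0293), and Map2k6, a kinase upstream of p38, fell by 1.84 (edgeR adjusted p = 0.0182). Of 10 relatives of Ccdc80 and matrix genes, 4 rose and 1 fell (median 0.85). Fbln2, which encodes the matrix protein fibulin-2, had 13.5 and 13.6 FPKM in the wild-type libraries, against 474, 381 and 488 FPKM in tumors (5.09, edgeR adjusted p = 0.00295). The fibronectin gene Fn1 rose by 4.96 and the microfibril gene Mfap5 by 3.08. Rbms1, a paralog of Rbms3, rose by 1.01 (edgeR adjusted p = 0.0337), whereas Rbms2 had a log2 fold change of 0.11 and did not pass. Dysf (dysferlin), the single other ferlin with enough counts, had a log2 fold change of 0.23 and did not pass.

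Crim1 stood in a BMP group with falls and rises. Of 22 tested BMP ligands, receptors, antagonists and target genes, 2 rose, 4 fell and 16 did not pass (median log2 fold change -0.29). Nog, which encodes the BMP antagonist noggin, went from 85.4 and 80.0 FPKM to 11.3, 11.9 and 7.25 FPKM (-2.97, edgeR adjusted p = 0.00509). Bmp2, a ligand, went from 26.6 and 27.7 FPKM to 0.730, 1.76 and 0.551 FPKM (-4.69, edgeR adjusted p = 0.00759). Fst, which encodes the activin and BMP antagonist follistatin, went from 2.22 and 1.85 FPKM to 39.8, 74.0 and 79.3 FPKM (5.05, edgeR adjusted p = 0.00535). All 3 changes were larger on the log2 scale than that of Crim1 itself.

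Around Nt5e, 18 tested genes of adenosine production, sensing, transport and breakdown gave 7 rises, 3 falls and 8 that did not pass (median log2 fold change 0.93). Adora2b, an adenosine receptor, went from 55.0 and 58.1 FPKM to 4.03, 5.22 and 2.42 FPKM (-3.81, edgeR adjusted p = 0.00538). Alpl, an alkaline phosphatase that can also release adenosine from AMP outside the cell, fell by 2.74 (edgeR adjusted p = 0.00578). Pnp, which breaks down inosine made from adenosine, rose by 1.24 (edgeR adjusted p = 0.0128).

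Around Dock5, 7 of 19 loci for DOCK proteins, their ELMO partners, Rac GTPases and adaptors rose, 3 fell and 9 did not pass (median log2 fold change 0.22). Rac3, counted as higher, shares its locus with Lrrc45, and Elmo3, counted as lower, shares its locus with E2f4. Both calls are those of the shared loci. The paralogs with the smallest p went up, opposite to Dock5: Dock8 from 1.25 and 1.32 FPKM to 7.69, 7.60 and 10.8 FPKM (2.81, edgeR adjusted p = 0.00477), Dock10 by 2.58 and Dock11 by 2.47. These paralogs are known for roles in immune cells.

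The targets that did not pass had partners that did. Of 13 tested relatives of Asap1, ARF GTPases and linked kinases, 5 rose and 8 did not pass (median log2 fold change 0.30), with Asap3 up by 1.45 (edgeR adjusted p = 0.00947), Arf6 by 1.11 and the kinase gene Ptk2b by 1.57. By edgeR no gene of that list fell, 1 was lower at an unadjusted p under 0.05, and DESeq2 called 1 lower. Of 21 genes of the NUAK and LKB1 group, 1 rose and 1 fell: Nuak1, the paralog of Nuak2, went from 3.26 and 3.40 FPKM to 14.4, 27.5 and 22.7 FPKM (2.73, edgeR adjusted p = 0.00833), and Sik3 fell by 1.11 (edgeR adjusted p = 0.0134). Of 9 tested genes of the tissue factor pathway, F2r, which encodes a thrombin receptor, rose from 17.1 and 19.3 FPKM to 89.2, 76.7 and 140 FPKM (2.53, edgeR adjusted p = 0.00969). The locus that F2rl3 shares with Nwd1 and Sin3b was called lower by edgeR from its counts (-0.61, adjusted p = 0.043), but its mean FPKM was 85.5 in wild type and 87.8 in tumors. It was not called with limma on FPKM, without a filter, with the replicate block, without tumor library 1 or either wild-type library in edgeR, or without either wild-type library in DESeq2. The other 7 genes did not pass (median of the 9 loci 1.59).

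**Figure D3:**
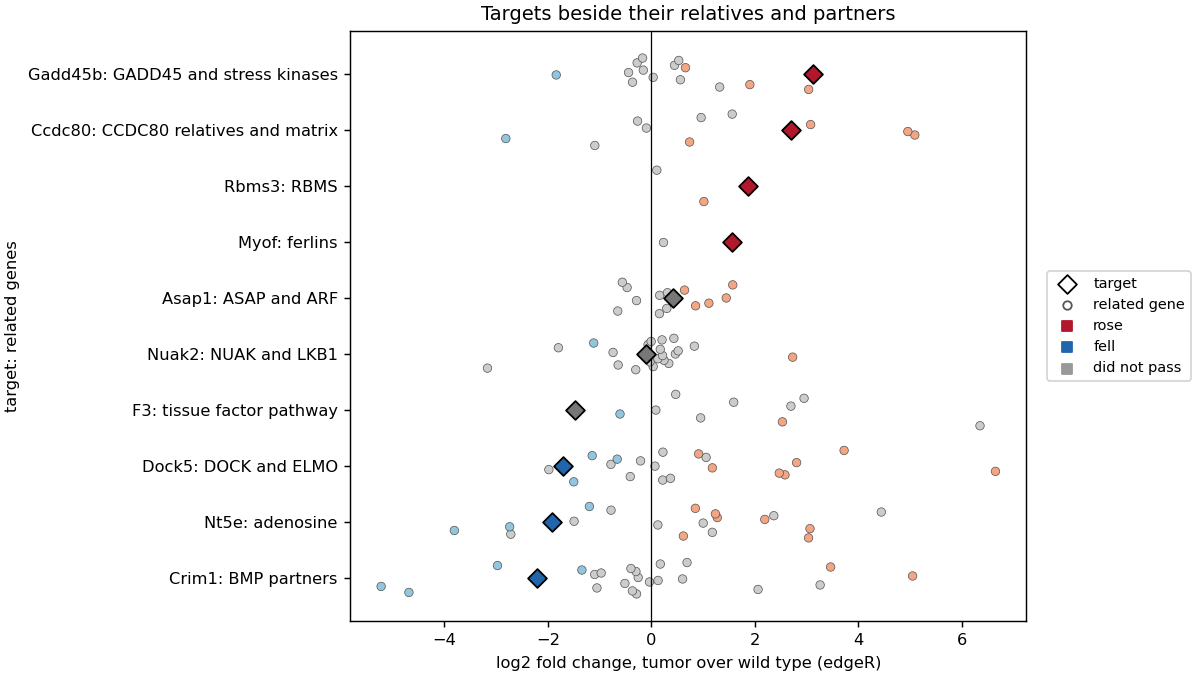
Log2 fold change (edgeR, tumor over wild type) of each target as a diamond and of its tested relatives and partners as circles, coloured by call. Dock5, Nt5e and Crim1 lie at -1.71, -1.92 and -2.203, with circles on both sides of 0 in each of their groups.

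Several lists of marker genes of eye and tumor cell types moved with the groups, and others did not. The wild-type tissue held high levels of retinal pigment epithelium markers (summed 16556 to 16705 FPKM over 8 loci), melanocyte markers (6523 to 6743 FPKM over 8) and rod markers (1537 to 1639 FPKM over 12). Rods and pigment epithelium belong to the retina, so the wild-type libraries held RNA of cells beside the uvea. In tumors the sums were 226 to 248, 8.88 to 30.4 and 10.6 to 14.7 FPKM, and 7 of 8, 8 of 8 and 12 of 12 markers fell. Most of the pigment epithelium sum in tumors came from a locus that Rdh5 shares with Bloc1s1 (228, 176 and 213 FPKM in tumor libraries 1, 2 and 3). The other 7 loci summed to 14.0, 71.7 and 13.1 FPKM there. Dct and Mlana were the most abundant of the melanocyte markers. In wild type, Dct had 2492 and 2437 FPKM and Mlana 1748 and 1621 FPKM. They had no more than 8.55 and 7.55 FPKM in any tumor, while the series title names the tumors uveal melanoma. How much of these wild-type levels came from melanocytes and how much from pigment epithelium was not tested. Macrophage markers went from 629 to 645 FPKM in wild type to 2556 to 9723 FPKM in tumors, with 6 of 8 higher, and T cell markers from 3.23 to 3.93 FPKM to 29.7 to 74.1 FPKM, with 6 of 7 higher. Of 9 fibroblast markers, 3 collagen genes rose (Col1a1, Col1a2 and Col3a1), Fap fell and 5 did not pass. Those 5 were Dpt (2.93), Pdgfra (0.74), Pi16 (0.05), Lum (-0.10) and Dcn (-1.09). DESeq2 called 5 fibroblast markers higher and 2 lower. The sum of the list was 1827 to 2028 FPKM in wild type and 2373 to 4336 FPKM in tumors. No marker list had a gene at 0 in all 3 tumors. The fall of Crim1, Nt5e and Dock5 stood beside the loss of pigment cell and rod markers, and the rise of Gadd45b, Ccdc80, Rbms3 and Myof beside higher macrophage and T cell markers and higher collagen genes; the part of these cell types in either was not tested.

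Single tumors also differed in these markers. Skeletal muscle markers summed to 8730 FPKM in tumor library 1, and to 485 and 517 FPKM in tumor libraries 2 and 3, beside 684 to 723 FPKM in wild type. None of the 9 passed in edgeR, with 0 at an unadjusted p under 0.05, and DESeq2 called 2 higher. Tumor library 1 is also the one with the lowest tumor value of 7 targets. Without it, the rises of Gadd45b (3.17), Ccdc80 (3.09), Rbms3 (1.66) and Myof (1.78) and the falls of Crim1 (-1.91) and Dock5 (-1.48) were still called by edgeR, and that of Nt5e was not. Tumor library 2, where Crim1, Nt5e, Dock5, F3 and Nuak2 had their highest tumor values, held the most corneal or conjunctival epithelium markers (822 FPKM against 119 and 201 in the other tumors and 1464 to 1475 in wild type) and the most ciliary epithelium markers (404 FPKM, of which Aqp1 held 360.2, against 121 and 75.5 in the other tumors and 272 to 279 in wild type). Without tumor library 2 the log2 fold changes were -2.43 for Crim1, -2.39 for Nt5e and -1.96 for Dock5, all called lower by edgeR.

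**Figure D4:**
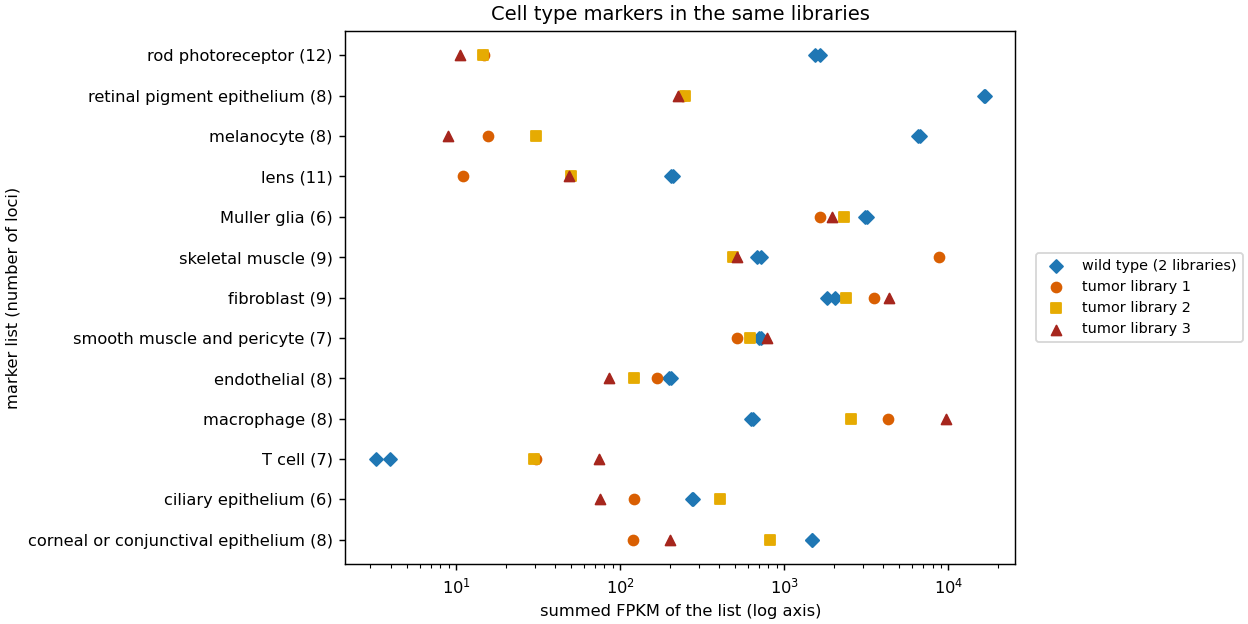
Summed FPKM of cell type marker lists in each library, on a log axis, with the number of loci in parentheses. Rod, pigment epithelium and melanocyte markers are lower in all 3 tumors, macrophage and T cell markers are higher, and the muscle markers of tumor library 1 (8730 FPKM) stand apart.

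Promoter sequences were available for 6 of the 10 targets from RefSeq (GRCm38.p6, 7 promoters); Asap1, Ccdc80, Dock5 and Nuak2 had none in the table used. The 250 bases before each start were searched on both strands for the TEAD core GGAATG and for the AP-1 motif TGANTCA, which do not overlap each other in these windows. Over all 32851 promoters, 12.64% held GGAATG and 6.749% held TGANTCA. Of the 7 target promoters, 1 held GGAATG (Crim1, bases 79 to 74 before the start) and 1 held TGANTCA (F3, at 146 to 140 and 135 to 129 bases before the start). The promoters of Crim1, the target with the largest fall, and of Gadd45b, the target with the largest rise, are shown 5′ to 3′ on the plus strand, Crim1 at chr17:78199998-78200247 and Gadd45b at chr10:80929841-80930090, each ending at the base before its RefSeq start. Capitals mark the TEAD core, and no capitals stand in Gadd45b because neither motif occurs there.

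Crim1: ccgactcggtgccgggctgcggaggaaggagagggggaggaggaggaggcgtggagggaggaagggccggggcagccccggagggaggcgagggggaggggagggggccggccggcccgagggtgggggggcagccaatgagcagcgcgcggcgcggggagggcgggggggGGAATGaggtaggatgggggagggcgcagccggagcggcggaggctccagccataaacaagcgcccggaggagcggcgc
Gadd45b: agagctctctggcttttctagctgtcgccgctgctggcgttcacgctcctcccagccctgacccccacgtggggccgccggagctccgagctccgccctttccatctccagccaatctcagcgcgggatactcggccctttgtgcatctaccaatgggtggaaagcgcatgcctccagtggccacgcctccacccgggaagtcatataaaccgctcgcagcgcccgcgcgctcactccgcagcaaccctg

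Both promoters were rich in G and C (77.6% for Crim1 and 65.2% for Gadd45b, with a median of 52.4% over all promoters). F3, whose tumors spread most widely, held its pair of AP-1 matches within 30 bases, at chr3:121723385-121723414 on the plus strand, from 152 to 123 bases before the RefSeq start and inside the locus as deposited. Capitals mark TGAATCA and TGAGTCA, both of which read as a match on either strand.

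F3: cgctgtTGAATCAcggtTGAGTCAcccctt

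The share of target promoters with GGAATG, 1 of 7 (14.29%), was close to that of all promoters (12.64%), and Nt5e, the other target that fell and had a promoter in the table, held neither motif. A match is a description of the letters in this window and not a site of binding, and the windows do not cover enhancers.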

How the data were processed

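RNA was sequenced from 2 wild-type uveal and 3 tumor samples. The submitters' processing notes name TopHat2 2.0.9, Cufflinks 2.2.1, Cuffdiff and build mm10. The sources used here do not give the roles of these tools, the annotation, read filters or strand setting. Per the file headers, the deposited table gives for each locus and library an unscaled estimated count of fragments and an FPKM that follows the authors' scaling between libraries. Between 96.8% and 97.1% of the estimated counts were whole, and all were rounded. The table marks 3 values as failed estimates, and these were kept unchanged. Unnamed loci (1627, with 1.52% to 4.37% of fragments) stayed out of library sizes and tests.

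Groups were read from the table's condition names. Replicate numbers count from 0 in the table and from 1 in the labels, so they only name libraries. Chi-square per degree of freedom was 5.43 between the wild-type libraries and 102 to 129 between tumors, so no library was a duplicate within sampling noise. Counts were tested with edgeR 4.0.16 in R 4.3.3 (filterByExpr with minimum count 10, TMM factors 0.909 to 1.08, two-sided quasi-likelihood F-test over all 5 libraries, no covariate, Benjamini-Hochberg adjustment). SE values were the fold change on the log2 scale over the square root of F. Log2 CPM used a prior count of 2. Scripts were tested on simulated data. Alternatives were DESeq2 1.42.0, other scaling, no filter, limma 3.58.1 on log2(FPKM + 1) and log2(FPKM + 0.1), each library left out, and a replicate block.

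The targets and gene lists were chosen with earlier results of these data known. Named are the 10 targets, the other listed targets, Yap1, Wwtr1, Tead1 to Tead4, Lats1 and Lats2, up to 3 changed loci with the smallest p from each family or partner list, and the 2 nearest patterns to each target. Rbms2, Dysf and Tead genes that did not pass are named to complete their families. Vgll3 is named for the largest change among the Hippo pathway genes. Genes that share or overlap a named locus are given beside it. Of the cell type markers, Dct and Mlana are named as the most abundant of their list. Rdh5 and Aqp1 are named for their share of a summed level. The fibroblast markers are all named. Gene models are GENCODE vM21 and promoters RefSeq GRCm38.p6. Exon numbers are those of 1 principal transcript per gene.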

Additional observations from a re-analysis of the deposited data

How the results depend on the processing

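Across 18 alternatives for each of the 10 targets (180 values), 153 kept direction and call, 23 kept direction and lost the call, and 2 kept direction and gained a call (F3 under DESeq2 without tumor library 2 or 3). The other 2 were those of Nuak2 without tumor library 1, which changed sign and were not called (0.09 by edgeR and 0.07 by DESeq2). The 153 include values of Asap1, Nuak2 and F3 that simply stayed without a call. All 23 lost calls were those of targets called in the main fit. The counts of loci called higher and lower were 2852 and 2349. They became 1765 and 2492 with limma on log2(FPKM + 1) over all named loci, where the share of higher calls was 41.5% instead of 54.8% and where 2 of the targets rose and 2 fell, with Myof, Ccdc80 and Nt5e lost. With each library left out in turn, the counts by edgeR or DESeq2 ranged from 0 to 3364 higher and from 0 to 3409 lower (by edgeR alone, to 3032 and 3112), those of the targets from 0 to 4 higher and from 0 to 4 lower, and those of the 14 other listed targets from 0 to 8 higher and from 0 to 4 lower. For the other listed targets, 0 lower was also the edgeR count over all 5 libraries. The remaining values of 0 came from edgeR without either wild-type library, where the lone library is assumed to vary like the tumors. DESeq2 then called 1641 higher and 1187 lower without wild-type library 1, and 1605 higher and 1188 lower without wild-type library 2. Of the other listed targets, 2 fell by DESeq2, 1 with RLE factors in edgeR, 3 by edgeR without tumor library 2, and 1, 4 and 1 by DESeq2 without tumor library 1, 2 and 3.

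Same-numbered libraries correlated at 0.01 and 0.03 in their deviations from group means, over 2 pairs. The deviations of the 2 wild-type libraries mirror each other, so these values cannot decide whether the table's numbers pair the libraries. With the number as a replicate block, edgeR called 1706 loci higher and 1361 lower, and 3 targets higher and 3 lower. Tumor library 3 has no wild-type library of its number, so the blocked fit takes the tumor effect from tumor libraries 1 and 2 alone. Its losses of calls therefore cannot be read as an effect of pairing. Ccdc80 lost its call there (log2 fold change 2.22, adjusted p = 0.0719). Of 396 counts over the Hippo, family and partner lists under alternatives, 261 stayed within 1.5 times, and the marker lists were not run under them. RLE factors moved the median log2 fold change of all loci by -0.03, and library size alone moved it by 0.02. With 2 wild-type libraries, their spread is poorly known.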

Other observations

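For each target, the single-name loci with the closest pattern over the 5 libraries (smallest Euclidean distance between log2 CPM centred on each gene) were listed as a description. For Myof these were Atp8b2 (distance 0.0618) and Itprip. Atp8b2 had 7.48 and 7.47 FPKM in the wild-type libraries, against 14.1, 19.8 and 29.3 FPKM in tumor libraries 1, 2 and 3. For Rbms3 they were Vcan (0.147), which encodes the matrix proteoglycan versican, and Tbc1d4. Vcan had 5.56 and 5.65 FPKM in the wild-type libraries, against 30.1, 20.5 and 20.4 FPKM in tumors. For Gadd45b they were Ebf3 and Kcna3, and for Ccdc80 Syt13 and Mab21l3.

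Among the targets that fell, the closest were Acot11 and Ptprh for Crim1, Pcdhb18 and Clcn3 for Nt5e, and Abca2 and Pcdhb13 for Dock5. Clcn3, a chloride transporter gene, had 24.4 and 29.1 FPKM in the wild-type libraries, against 6.93, 9.54 and 4.26 FPKM in tumors. The closest to F3 were Ccdc136 and Ptgfr. The closest to Asap1 were Tnfaip3 (0.0819) and Tln1, which encodes the cytoskeletal linker talin, and Tln1 had 46.5 and 48.9 FPKM in the wild-type libraries, against 36.8, 67.7 and 95.7 FPKM in tumors. The smallest distance of all was that of Nuak2 to Usp22 (0.0407), followed for Nuak2 by Supt5h.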
